A study of Mus musculus with 48 samples.

Results

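The genes described here are 65 protein-coding mouse genes for cell adhesion molecules of neurons, out of 54838 genes counted in each library. They were chosen by symbol: the numbered cadherins and protocadherins (Cdh and Pcdh genes, without the vascular cadherin Cdh5), the neurexins, neuroligins, contactins, contactin-associated proteins (Cntnap genes), and the Lrrtm, Slitrk and Flrt genes. By family they were 22 classical and atypical cadherins, 11 protocadherins outside the large clusters, 7 Cntnap genes, 6 contactins, 6 Slitrk genes, 4 Lrrtm genes, 3 Flrt genes, 3 neurexins and 3 neuroligins. The comparisons were between D1 and D2 neuron libraries, and between fentanyl and water abstinence within each.

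Synaptic adhesion molecules hold the transmitting and receiving sides of a synapse together and help decide which synapses form and which receptors they contain. Neurexins sit on the presynaptic terminal and bind neuroligins and LRRTM proteins on the postsynaptic membrane, while SLITRK proteins bind presynaptic receptor phosphatases and FLRT proteins bind latrophilins and UNC5 receptors. Contactins are membrane-anchored immunoglobulin proteins that pair with the neurexin-like CNTNAP proteins on axons. Cadherins and protocadherins bind mostly their own kind on neighbouring cells and depend on calcium. In the nucleus accumbens nearly all neurons are medium spiny neurons of a D1 or a D2 dopamine receptor type, and their inputs and outputs differ.

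Polyribosomes carrying tagged Rpl22, a ribosomal protein, were immunoprecipitated from nucleus accumbens punches of mice on day 10 of abstinence. The pull-down was aimed at RNA of cells in which Cre had been active. How much RNA of other cells came with it was not measured. D1 libraries came from Drd1Cre x Rpl22HA mice and D2 libraries from A2ACre x Rpl22HA mice, in which the Adora2a promoter drives Cre. Mice of each line were in fentanyl abstinence or in water abstinence, and both sexes were used. Each library pooled 4 mice, and the 48 libraries made 8 groups of 6, or 12 libraries for each cell type and treatment. All mice carried the tagged Rpl22 allele and a Cre. Reads in genes numbered 20211543 to 31779013 in D1 libraries and 27101011 to 42584762 in D2 libraries, of which the 65 genes took 0.422 ± 0.0133% in D1 and 0.330 ± 0.0116% in D2 libraries (SD, n = 24 each).

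Levels are given as CPM, read counts scaled to library size with TMM factors. The labelled cell types showed in their receptors: Drd1 averaged 490 ± 60.3 CPM in D1 and 50.9 ± 6.93 CPM in D2 libraries in water, and Drd2 averaged 58.3 ± 19.2 CPM in D1 and 418 ± 34.6 CPM in D2 libraries (SD, n = 12 each). Markers of other cells moved with the cell type too. The 13 markers of endothelial cells and pericytes summed to 13.0 to 25.3 CPM in D1 and 253 to 503 CPM in D2 libraries, and the 11 astrocyte markers to 261 to 532 CPM in D1 and 494 to 976 CPM in D2 libraries. The 11 markers of GABA interneurons summed to 784 to 1861 CPM in D1 and 252 to 633 CPM in D2 libraries, and the 8 markers of excitatory pallial neurons to 392.1 to 895 CPM in D1 and 105 to 637 CPM in D2 libraries. No marker of these 4 lists was at 0 in either cell type. All 8 markers of cholinergic interneurons were higher in D1 in water (edgeR, adjusted p under 0.05), with a median log2 difference of 2.26. Of 7 markers shared by D1 and D2 neurons, 4 fell lower in D1 in water and 0 higher, with a median of -0.37. The counts were the same in fentanyl abstinence, with medians of 2.00 and -0.30. What part all these markers had in the differences between D1 and D2 below was not tested. With RNA pulled down in bulk, fewer cells of a type and less RNA per cell cannot be told apart. Replicate 6 of the D1 female water group had the fewest reads and stood above the other 5 for 7 of these genes. Many of the values that it moves are therefore also given without it.

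Of the 65 genes, 59 had enough reads for a test over all 48 libraries. Cdh16 had no read in any library, which over 1436247875 reads allows up to 0.00209 CPM at 3 reads. Cdh1, the epithelial cadherin, had 65 reads in all, Cdh3 had 27, Cdh26 had 64 and Cdh17 had 204. Nrxn2 was listed at 0 in all 48 libraries, and it lies in a stretch (chr19:6184388-6544169, GRCm38) in which 12 of 13 protein-coding genes were listed at 0, among them the widely used splicing factor Sf1. The other gene there had 1 read in all. A 0 there gives no level for Nrxn2, and it is left out of every comparison.

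Set per length, the levels of the remaining genes differed widely within most families. In D1 libraries in water the highest was Cntn1, a contactin of axons and myelinating glia, at 43.3 ± 3.10 CPM per kb of exon, followed by Lrrtm1 at 40.8 ± 5.37, Nrxn3 at 32.2 ± 3.73, Pcdh17 at 26.9 ± 4.50 and Lrrtm3 at 26.2 ± 2.87 CPM per kb (SD, n = 12). In D2 libraries in water Lrrtm1 was highest at 37.5 ± 4.23 CPM per kb, ahead of Cntn1 at 27.9 ± 1.02, Pcdh17 at 25.3 ± 1.81, Nrxn3 at 25.3 ± 1.64 and Flrt3 at 22.5 ± 1.30 CPM per kb (SD, n = 12). The same 4 genes thus led both lists in a different order. Cntn1 and Lrrtm1 lay within 1 SD of each other in D1, as did Pcdh17 and Lrrtm3, and in D2 Pcdh17 and Nrxn3 did. Exons of every annotated isoform count as length, so a gene that uses few of them reads low on this scale.

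**Figure D1:**
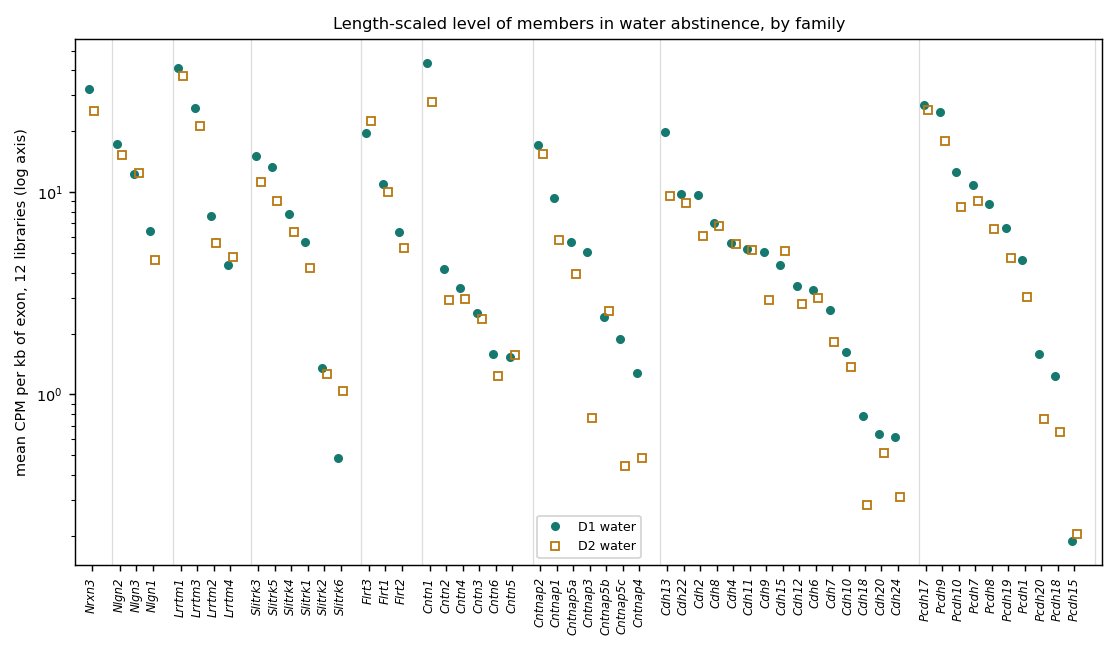
Mean level of each gene in water abstinence per kb of exon on a log axis, D1 libraries as filled circles and D2 libraries as open squares, 12 libraries each, ordered within family by the D1 value; genes under 0.1 CPM per kb in D1 are not drawn. The families hold genes at very different levels, and the wide gaps between circle and square are at Cntnap3, Cntnap4, Cntnap5c and Cdh18, where D1 is higher, and at Slitrk6, where D2 is higher.

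Between the cell types most of these genes were higher in D1 libraries. In water, 39 of the 59 passed the test as higher in D1 (edgeR's quasi-likelihood test, adjusted p under 0.05), against 26.8% of all 18270 genes tested, and 6 passed as lower, against 26.5% of all genes. In fentanyl abstinence 38 were higher, against 26.8% of all genes, and 5 were lower, against 27.1%. Counted either way, 53.9% of all genes passed in fentanyl abstinence and 53.3% in water. The 2 comparisons share no library, but they share 1 fit, its estimate of the spread and the same mouse lines. Each cell type came from its own Cre line, so cell type and line cannot be told apart. In both comparisons 36 genes were called higher and 4 lower, and none was called in opposite directions. The median log2 difference, D1 minus D2, was 0.34 in fentanyl abstinence and 0.31 in water, while over all genes it was -0.01 in both. The 15 genes used below as a neuronal scale stood about as high themselves: 12 were higher in D1 in fentanyl abstinence, with a median of 0.37, and 13 in water, with a median of 0.34. Without D1 female water replicate 6, 41 genes were higher and 5 lower in fentanyl abstinence, and 41 higher and 7 lower in water. Of all 18478 genes tested without it, 5144 were higher and 5017 lower in fentanyl abstinence, and 4920 and 4734 in water. The D1 and D2 libraries did not overlap for 17 genes that were higher in D1 in fentanyl abstinence, against 6.14% of all genes, and for 0 that were lower, against 6.03%. In water they did not overlap for 21 higher genes, against 6.64% of all genes, and for 1 lower gene, against 6.11%.

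How many genes count as higher depended on the scaling between cell types. These values use TMM scaling, which sets the bulk of all genes equal. Scaled instead to the 15 genes that all neurons express, the median of all genes moved to -0.39 in fentanyl abstinence and -0.42 in water. The split then became 14 higher and 25 lower in fentanyl abstinence, against 7.1% and 63.7% of all genes, and 15 higher and 25 lower in water, against 6.66% and 65.7%. In water, 15 genes were higher under both scalings and 6 were lower under both, while 6 changed from higher to lower. These 6 were Cdh10, Cntn4, Cntnap2, Flrt1, Nlgn2 and Pcdh7. In fentanyl abstinence 14 were higher under both and 5 lower under both, and Cdh10, Cdh11, Cntn4 and Pcdh7 changed from higher to lower. The others called higher under TMM scaling, 20 in fentanyl abstinence and 18 in water, did not pass under neuronal scaling. Relative to the median of all genes the 59 genes stood 0.32 higher in D1 under either scaling in water. A change of scaling moves all genes by nearly the same amount, so this value could hardly differ between the scalings. Differences below are from TMM scaling unless the other is named.

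**Figure D2:**
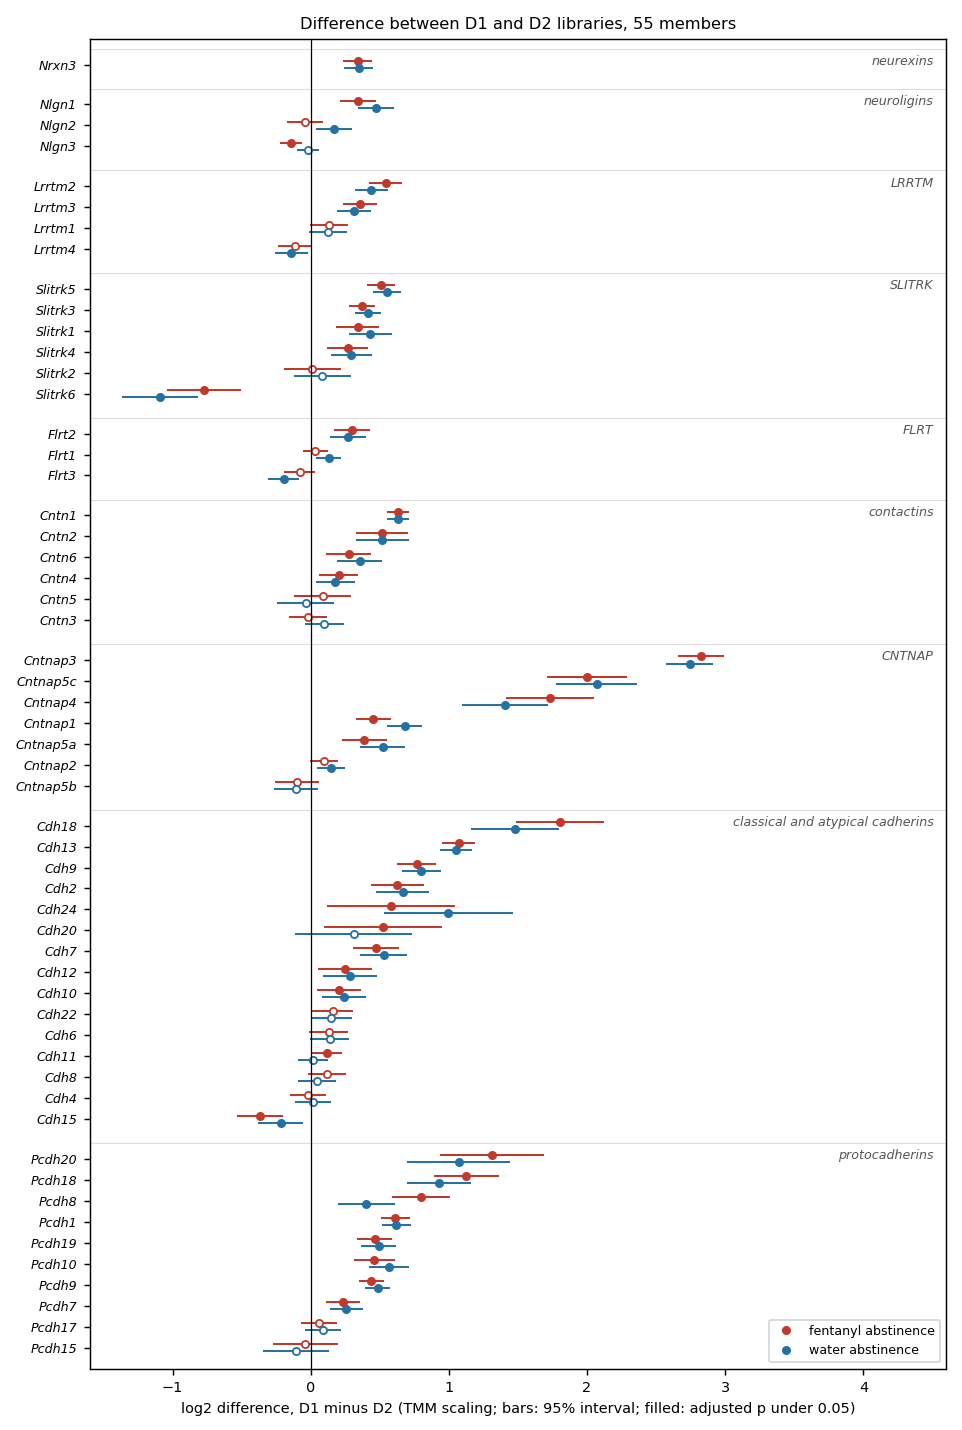
Log2 difference between D1 and D2 libraries, D1 minus D2 under TMM scaling, for 55 genes grouped by family and ordered by the value in fentanyl abstinence, with 95% intervals; red is fentanyl abstinence, blue is water abstinence, and filled points have an adjusted p under 0.05. Cdh19, Cdh23 and Pcdh12, each under 1 CPM on average, are tested but not drawn. Cntnap3 and Cntnap5c lie farthest to the right in both treatments, and Slitrk6 farthest to the left. Scaling to neuronal genes would move every point to the left by about the shift given in the text.

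The widest D1 difference belonged to Cntnap3, a neurexin-like protein that pairs with contactins. In fentanyl abstinence it had 25.8 to 40.1 CPM (median 34.1) in D1 libraries and 3.58 to 6.59 CPM (median 4.72) in D2 libraries. In water it had 26.4 to 40.4 CPM (median 31.3) in D1 and 3.82 to 6.30 CPM (median 4.79) in D2 libraries. The library at 40.4 CPM was D1 female water replicate 6, and the next of its group had 30.31 CPM. Every D1 library was thus far above every D2 library, in both treatments. The log2 difference was 2.82 ± 0.0802 in fentanyl abstinence (SE, adjusted p = 1.76e-32) and 2.74 ± 0.0802 in water (SE, adjusted p = 5.45e-32). The gene lies on the minus strand at chr13:64736182-64903955 (GRCm38), with no overlapping gene and no 50-mer in common with another. The 300-base RefSeq window that spans its start is shown because no other gene here separated the cell types as widely. The window holds 1 copy of TATAAA, on the opposite strand and in capitals below, and no GGGCGG on either strand.
Cntnap3 promoter, chr13:64903839-64904138, minus strand, GRCm38.p6: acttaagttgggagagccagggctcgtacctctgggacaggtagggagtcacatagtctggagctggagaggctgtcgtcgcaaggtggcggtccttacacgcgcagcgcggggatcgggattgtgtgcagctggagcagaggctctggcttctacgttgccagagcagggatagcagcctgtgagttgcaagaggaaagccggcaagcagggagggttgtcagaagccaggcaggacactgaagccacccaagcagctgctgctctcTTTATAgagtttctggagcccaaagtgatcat

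Its relatives ranged from nearly as wide a difference to none. Cntnap5c had 4.53 to 10.1 CPM (median 7.33) in D1 and 0.860 to 2.76 CPM (median 1.81) in D2 libraries in water, with no overlap. Its log2 difference was 2.00 ± 0.140 in fentanyl abstinence and 2.07 ± 0.141 in water (SE, adjusted p = 3.14e-17 and 1.15e-17). Cntnap4, which is known for a role at the synapses of interneurons, had 6.44 to 11.4 CPM (median 7.81) in D1 and 1.496 to 4.85 CPM (median 3.14) in D2 libraries in water, again without overlap. Its log2 difference was 1.73 ± 0.154 in fentanyl abstinence and 1.41 ± 0.152 in water (SE, adjusted p = 1.24e-13 and 4.79e-11). Cntnap1, the CNTNAP protein of the junctions beside nodes of Ranvier, and Cntnap5a differed less, by 0.45 and 0.39 in fentanyl abstinence and by 0.68 and 0.52 in water on the log2 scale.

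Cntnap5b did not pass: it had 10.4 to 18.0 CPM (median 12.4) in D1 and 10.9 to 15.3 CPM (median 13.4) in D2 libraries in water, a log2 difference of -0.11 (95% interval -0.26 to 0.04, adjusted p = 0.226 by edgeR). Without D1 female water replicate 6, the library at 18.0 CPM, it passed as lower in D1 at -0.16 (adjusted p = 0.0435, edgeR). So Cntnap5c, Cntnap5a and Cntnap5b, with 2.318%, 0.9637% and 1.77% of their 50-mers also present elsewhere, differed by 2.07, 0.52 and -0.11 in water. Cntnap2, whose protein gathers potassium channels along axons, passed in water at 0.14 (adjusted p = 0.00721) and missed in fentanyl abstinence at 0.10 (adjusted p = 0.0753), where it passed without that library (0.10, adjusted p = 0.0393). In all, 6 of 7 Cntnap genes were higher in D1 in water and none lower, against 26.8% and 26.5% of all genes. Under neuronal scaling 4 were higher and 2, Cntnap2 and Cntnap5b, were lower, against 6.66% and 65.7% of all genes.

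Among the neurexins, Nrxn3 had 367 to 534 CPM (median 387) in D1 and 282 to 365 CPM (median 313) in D2 libraries in water, without overlap. Its log2 difference was 0.34 in fentanyl abstinence and 0.35 in water (adjusted p = 3.79e-08 and 2.24e-08). Without D1 female water replicate 6, the library at 534 CPM, the water value was 0.31. Under neuronal scaling Nrxn3 stood at -0.06 in water and did not pass (adjusted p = 0.427).

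The neuroligins, the postsynaptic partners of the neurexins, were not alike. Nlgn1, found at excitatory synapses, had 73.4 to 106 CPM (median 83.0) in D1 and 53.5 to 72.3 CPM (median 60.5) in D2 libraries in water, without overlap. D1 minus D2 on the log2 scale was 0.34 in fentanyl abstinence and 0.47 in water (adjusted p = 4.24e-06 and 3.61e-09), and under neuronal scaling it was -0.05 and 0.06, not past the threshold. Nlgn2, the neuroligin of inhibitory synapses, was higher in D1 in water by 0.17 (adjusted p = 0.0165) and not in fentanyl abstinence at -0.04 (95% interval -0.16 to 0.08, adjusted p = 0.577). The difference between these 2 values missed the adjusted threshold (-0.21 ± 0.0852, adjusted p = 1, edgeR). Nlgn2 went the other way under neuronal scaling in water, at -0.23, with male libraries alone stood at -0.02, and without D1 female water replicate 6 at 0.13. Nlgn3 had 106 to 136 CPM (median 113) in D1 and 109 to 126 CPM (median 114) in D2 libraries in water (log2 difference -0.02, adjusted p = 0.701), and stood at -0.04 without that replicate, the library at 136 CPM. In fentanyl abstinence it was lower in D1 by 0.14 ± 0.0354 on the log2 scale (SE, adjusted p = 0.000659). Another gene, Gm21986, overlaps 41.2% of the exonic bases of Nlgn3, and the Smart-Seq v4 kit keeps no strand, so its counts may be mixed.

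The Lrrtm genes, whose proteins bind neurexins from the postsynaptic side, split. Lrrtm2 and Lrrtm3 were higher in D1, by 0.54 and 0.36 in fentanyl abstinence and by 0.44 and 0.31 in water. Lrrtm1 did not pass in either treatment (0.13 and 0.12), but passed as higher in both without D1 female water replicate 6 (0.14 and 0.17, adjusted p = 0.0353 and 0.0122). Lrrtm4 was lower in D1 in water by 0.14 (adjusted p = 0.0294), at 23.6 to 29.8 CPM (median 26.5) in D1 and 23.9 to 35.6 CPM (median 29.6) in D2 libraries, which overlap widely. Gm4409 overlaps 25.1% of its exonic bases. No Lrrtm gene was higher in D1 under neuronal scaling in water and 2 of 4 were lower, against 6.66% and 65.7% of all genes.

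In the Slitrk family 4 of 6 genes were higher in D1 in water and Slitrk6 was lower, against 26.8% and 26.5% of all genes. With neuronal scaling 1 was higher and 2 lower, against 6.66% and 65.7% of all genes. Slitrk6 had 1.89 to 3.37 CPM (median 2.47) in D1 and 2.69 to 6.65 CPM (median 4.38) in D2 libraries in fentanyl abstinence, with overlap. In water it had 1.20 to 2.92 CPM (median 2.05) in D1 and 3.65 to 5.85 CPM (median 4.27) in D2 libraries, and it was the single gene here whose D1 libraries all lay below the D2 libraries. The log2 differences were -0.77 ± 0.1304 and -1.09 ± 0.133 (SE, adjusted p = 1.77e-06 and 1.04e-09), and Slitrk6 stayed lower under neuronal scaling at -1.496 in water. Slitrk5, known in mice for a role in striatal circuits and grooming, had 59.3 to 80.1 CPM (median 69.0) in D1 and 43.0 to 51.8 CPM (median 47.1) in D2 libraries in water, without overlap. It was higher in D1 by 0.51 in fentanyl abstinence and by 0.55 in water (adjusted p = 1.85e-13 and 1.42e-14), and by 0.14 in water under neuronal scaling. Slitrk1 was higher by 0.34 and 0.43, Slitrk3 by 0.37 and 0.41 and Slitrk4 by 0.27 and 0.29, and Slitrk2 did not pass (0.01 and 0.08).

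Of the 5 differing Slitrk genes, 3 lie on chromosome 14. In the GENCODE annotation of GRCm38, Slitrk1 (108908800 to 108914158, minus strand), Slitrk6 (110748580 to 110755149, minus strand) and Slitrk5 (111675097 to 111683141, plus strand) lie in this order, 1834 and 919.9 kb apart. The windows that the same RefSeq table gives for them are shown because, under TMM scaling, the gene in the middle was lower in D1 while those on either side were higher. Under neuronal scaling Slitrk6 stayed lower in both treatments, while Slitrk1 did not pass (-0.04 in fentanyl abstinence and 0.03 in water) and Slitrk5 passed in water alone (0.13 in fentanyl abstinence, adjusted p = 0.0515). RefSeq and GENCODE place the starts differently: the Slitrk5 window lies inside the GENCODE gene, downstream of its outermost start, and the Slitrk1 window lies wholly upstream of the GENCODE gene. The windows hold 9 CpG dinucleotides at Slitrk1, 4 at Slitrk6 and 35 at Slitrk5, where the median of 32851 such windows is 7. TATAAA occurs in none of the 3, and GGGCGG occurs only at Slitrk5, with 2 copies on the opposite strand, in capitals. Over all windows 13.62% hold TATAAA and 35.66% hold GGGCGG on either strand, and the motifs cannot overlap each other.
Slitrk1 RefSeq window, chr14:108914190-108914489, minus strand, GRCm38.p6: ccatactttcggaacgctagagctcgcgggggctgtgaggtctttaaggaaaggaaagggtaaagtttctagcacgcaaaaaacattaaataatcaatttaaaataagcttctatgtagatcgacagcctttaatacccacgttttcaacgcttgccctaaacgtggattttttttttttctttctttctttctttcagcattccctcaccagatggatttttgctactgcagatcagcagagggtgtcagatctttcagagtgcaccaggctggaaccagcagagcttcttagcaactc
Slitrk6 RefSeq window, chr14:110755100-110755399, minus strand, GRCm38.p6: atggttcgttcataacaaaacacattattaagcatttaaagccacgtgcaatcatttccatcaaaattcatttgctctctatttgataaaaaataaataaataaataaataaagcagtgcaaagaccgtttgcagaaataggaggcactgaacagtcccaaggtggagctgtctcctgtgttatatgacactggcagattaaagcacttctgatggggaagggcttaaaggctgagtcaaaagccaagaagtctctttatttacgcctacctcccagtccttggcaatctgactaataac
Slitrk5 RefSeq window, chr14:111675777-111676076, plus strand, GRCm38.p6: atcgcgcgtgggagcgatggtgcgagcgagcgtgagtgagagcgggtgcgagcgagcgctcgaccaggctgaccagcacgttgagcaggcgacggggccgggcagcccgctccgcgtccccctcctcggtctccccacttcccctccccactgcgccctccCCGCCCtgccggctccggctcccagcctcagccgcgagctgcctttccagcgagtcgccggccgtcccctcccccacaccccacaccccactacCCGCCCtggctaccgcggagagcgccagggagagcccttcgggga

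Of the Flrt genes, Flrt2 was higher in D1 by 0.30 in fentanyl abstinence and by 0.27 in water. Flrt3 was lower in D1 in water by 0.20 ± 0.0523 on the log2 scale (SE, adjusted p = 0.00131), at 85.0 to 109 CPM (median 95.2) in D1 and 101 to 120 CPM (median 111) in D2 libraries. In fentanyl abstinence its value was -0.08 and did not pass (adjusted p = 0.207). Flrt1 passed in water at 0.13 and not in fentanyl abstinence at 0.03. Under neuronal scaling Flrt1 and Flrt3 were lower in D1 in water and Flrt2 did not pass.

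Of the 6 contactins, 4 were higher in D1 in both treatments and none was lower. Of all genes 26.8% were higher in each, and 27.1% in fentanyl abstinence and 26.5% in water were lower. With neuronal scaling 1 contactin was higher and 3 were lower in water, against 6.66% and 65.7% of all genes. Cntn1 had 381 to 444 CPM (median 402) in D1 and 238 to 292 CPM (median 261) in D2 libraries in fentanyl abstinence, and 373 to 469 CPM (median 404) in D1 and 238 to 276 CPM (median 264) in D2 libraries in water. The groups did not overlap, and the log2 difference was 0.63 ± 0.0358 in fentanyl abstinence and 0.63 in water (SE, adjusted p = 9.36e-21 and 1.16e-20). Cntn2, an axonal contactin, differed by 0.52 in both, Cntn6 by 0.27 and 0.35, and Cntn4 by 0.20 and 0.18. Cntn3 and Cntn5 did not pass. Cntn1 stayed higher at 0.22 in water under neuronal scaling, and Cntn4 went the other way, at -0.23. Cntn3 and Cntn5 were lower there, at -0.31 and -0.45.

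Among the classical and atypical cadherins, 11 of the 17 tested were higher in D1 in fentanyl abstinence and 9 in water, with 2 lower in each. Of all genes 26.8% were higher in each, and 27.1% in fentanyl abstinence and 26.5% in water were lower. With neuronal scaling 5 cadherins were higher and 8 lower in water, against 6.66% and 65.7% of all genes. The highest in level, Cdh13, is the truncated cadherin held to the membrane by a lipid anchor. It had 191 to 241 CPM (median 229) in D1 and 86.5 to 147 CPM (median 104) in D2 libraries in fentanyl abstinence, and 186 to 254 CPM (median 227) in D1 and 96.6 to 118 CPM (median 107) in D2 libraries in water. No D1 library fell within the D2 range, and the log2 difference was 1.07 ± 0.0550 and 1.05 ± 0.0550 (SE, adjusted p = 2.33e-22 and 4.61e-22). Cdh2, the N-cadherin of synapses, had 59.7 to 90.7 CPM (median 80.1) in D1 and 28.9 to 61.8 CPM (median 47.7) in D2 libraries in water, with a slight overlap. It was higher by 0.63 in fentanyl abstinence and by 0.67 in water (adjusted p = 1.21e-07 and 3.15e-08).

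The type II cadherins of chromosome 15 were not alike. Cdh18 had 2.61 to 5.68 CPM (median 3.42) in D1 and 0.616 to 1.54 CPM (median 1.12) in D2 libraries in fentanyl abstinence, without overlap, and differed by 1.80 ± 0.155 there and by 1.48 ± 0.154 in water (SE, adjusted p = 3.43e-14 and 1.34e-11). Cdh9 had 14.2 to 21.0 CPM (median 18.3) in D1 and 9.07 to 12.6 CPM (median 10.2) in D2 libraries in water, also apart, and differed by 0.77 and 0.80 (adjusted p = 4.27e-14 and 1.3e-14). Cdh12 and Cdh10 differed by 0.25 and 0.21 in fentanyl abstinence and by 0.29 and 0.24 in water. Cdh6 did not pass (0.13 and 0.14). Under neuronal scaling Cdh18 and Cdh9 stayed higher in D1 in water, at 1.07 and 0.39, and Cdh10 and Cdh6 were lower.

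Cdh24, at 1.03 to 3.28 CPM (median 2.13) in D1 and 0.583 to 1.501 CPM (median 1.03) in D2 libraries in water, was higher by 1.00 there and by 0.58 in fentanyl abstinence, with overlap. Cdh7 was higher by 0.47 and 0.53. Cdh20 and Cdh11 passed as higher in fentanyl abstinence, at 0.52 and 0.12 (adjusted p = 0.0325 and 0.0386), and not in water, at 0.31 and 0.02. Under neuronal scaling Cdh20 did not pass in fentanyl abstinence (0.15, adjusted p = 0.51) and Cdh11 was lower in D1 there (-0.27, adjusted p = 0.000181) and in water (-0.39). Without D1 female water replicate 6, Cdh11 stood at 0.12 in fentanyl abstinence and 0.00 in water. Cdh23, the cadherin of hair cell tip links, was higher by 0.93 and 1.06 at under 1 CPM. Cdh4, Cdh8 and Cdh22 did not pass in either treatment, though without that replicate Cdh22 was higher in D1 at 0.17 in fentanyl abstinence and 0.18 in water (adjusted p = 0.0396 and 0.0324). Cdh15, the M-cadherin first known from muscle, was lower in D1: it had 10.3 to 17.2 CPM (median 14.0) in D1 and 15.9 to 21.4 CPM (median 17.8) in D2 libraries in fentanyl abstinence. Its log2 difference was -0.37 ± 0.0786 in fentanyl abstinence and -0.22 ± 0.0788 in water (SE, adjusted p = 8.48e-05 and 0.0168). Cdh19 was also lower in D1, at -0.99 and -1.79, but with medians of 0.194 CPM in D1 and 0.538 CPM in D2 libraries in water it rests on few reads. Markers of oligodendrocyte precursors summed to 7.92 to 15.1 CPM in D1 and 27.8 to 48.5 CPM in D2 libraries, and their part in this was not tested.

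Of 11 protocadherins, 8 were higher and 1 lower in D1 in each treatment. Of all genes 26.8% were higher in each, and 27.1% in fentanyl abstinence and 26.5% in water were lower. With neuronal scaling 3 protocadherins were higher and 4 lower in water, against 6.66% and 65.7% of all genes. Pcdh20 had 5.42 to 17.5 CPM (median 7.63) in D1 and 1.67 to 5.38 CPM (median 3.29) in D2 libraries in fentanyl abstinence, and 6.26 to 15.3 CPM (median 7.37) in D1 and 2.30 to 5.91 CPM (median 3.98) in D2 libraries in water. The lowest D1 library stood just above the highest D2 library in each, with log2 differences of 1.31 ± 0.183 and 1.07 ± 0.181 (SE, adjusted p = 4.81e-08 and 2.28e-06). Pcdh18 differed by 1.13 and 0.93 (adjusted p = 3.32e-12 and 6.62e-10) at 4.91 to 9.61 CPM (median 6.24) in D1 and 1.80 to 4.12 CPM (median 3.69) in D2 libraries in water, again without overlap. Both kept their direction under neuronal scaling, at 0.67 and 0.52 in water.

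Pcdh8, or arcadlin, is induced by neuronal activity and controls N-cadherin at synapses. It had 32.0 to 60.1 CPM (median 47.5) in D1 and 19.9 to 31.6 CPM (median 27.1) in D2 libraries in fentanyl abstinence, so that the groups did not overlap. In water it had 26.7 to 55.3 CPM (median 37.2) in D1 and 22.8 to 36.6 CPM (median 29.7) in D2 libraries, and there they did overlap. The log2 difference was 0.80 in fentanyl abstinence and 0.40 in water (adjusted p = 4.11e-09 and 0.00065). Gm9748 overlaps 9.608% of its exonic bases. Under neuronal scaling it stayed higher in fentanyl abstinence at 0.42 (adjusted p = 0.000186), while the value in water was 0.00 and did not pass.

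Pcdh1, Pcdh19, Pcdh10 and Pcdh9 differed by 0.61, 0.46, 0.46 and 0.44 in fentanyl abstinence and by 0.62, 0.49, 0.57 and 0.48 in water. With neuronal scaling Pcdh1 stayed higher in water at 0.21, while Pcdh19, Pcdh10 and Pcdh9 did not pass (0.09, 0.17 and 0.08). Pcdh7 differed by 0.23 and 0.26 and went the other way under neuronal scaling in water, at -0.15. Pcdh15, a partner of Cdh23, did not pass (-0.04 and -0.11). Pcdh15 and Pcdh17 were lower in D1 in water under neuronal scaling, at -0.51 and -0.32. Pcdh19 and Pcdh10 belong to the delta group of protocadherins, and in humans PCDH19 is a gene of epilepsy in females. Pcdh17, one of the highest genes here, did not pass under TMM scaling: it had 290 to 507 CPM (median 331) in D1 and 292 to 379 CPM (median 326) in D2 libraries in water (log2 difference 0.09, 95% interval -0.04 to 0.21), and stood at 0.03 without D1 female water replicate 6, the library at 507 CPM. Pcdh12, a protocadherin of blood vessels, was lower in D1 at medians of 0.0354 CPM in D1 and 0.208 CPM in D2 libraries in water (log2 -1.80 ± 0.619, SE, adjusted p = 0.0121, edgeR). The vascular markers given above were lower in D1 as well, and their part in this was not tested.

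**Figure D3:**
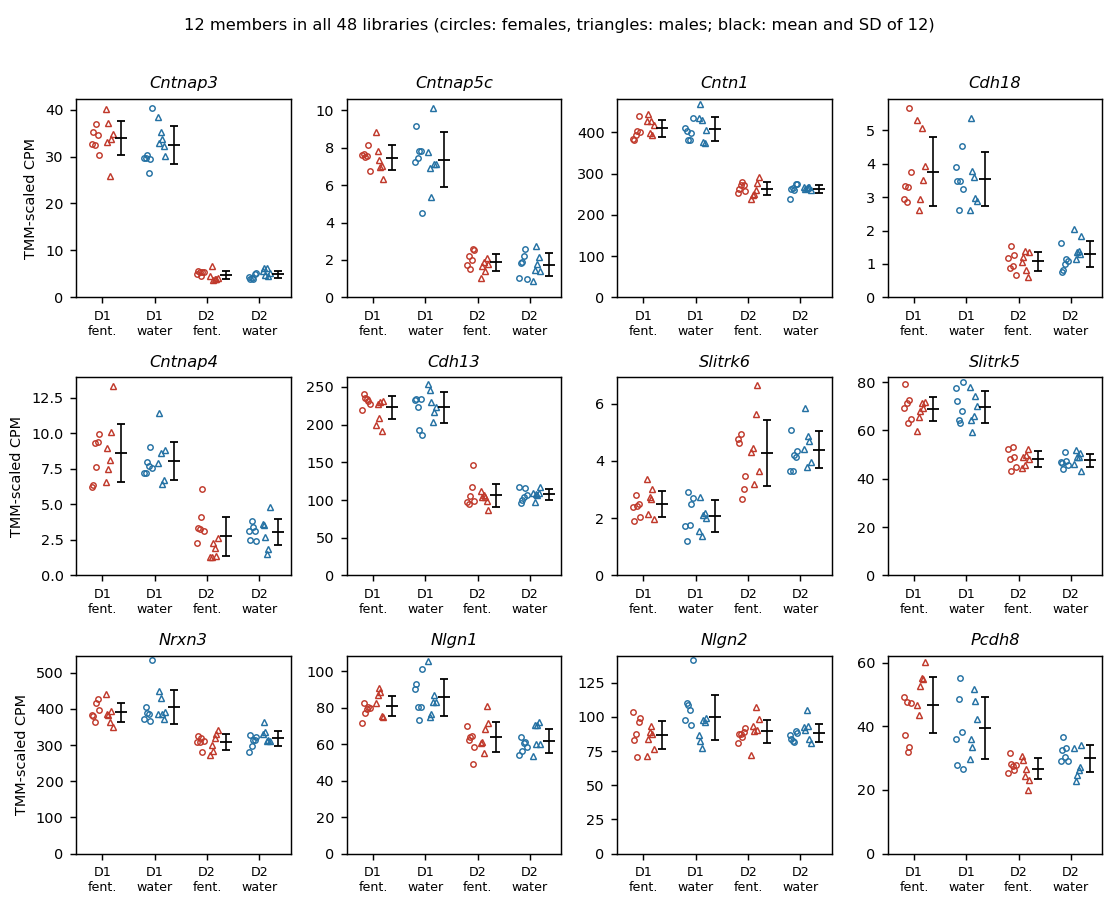
TMM-scaled CPM of 12 genes in all 48 libraries, D1 before D2 and fentanyl (red) before water (blue); circles are females, triangles males, and the black marks give the mean and SD of 12 libraries. The D1 and D2 points are apart within each treatment for Cntnap3, Cntnap5c, Cntn1, Cdh18, Cntnap4, Cdh13, Slitrk5 and Nrxn3, lie in the other order for Slitrk6, apart in water and overlapping in fentanyl abstinence, and overlap for Nlgn2, while fentanyl and water points overlap in every panel.

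Known partners of these proteins were counted alongside. In water 26.8% of all genes were higher and 26.5% lower in D1, and 6.66% and 65.7% under neuronal scaling. Of 21 tested partners of neurexins and neuroligins, 17 were higher and 2 lower in D1 in water (8 higher and 7 lower under neuronal scaling), with a median log2 difference of 0.32. The secreted neurexin ligands led: Nxph2 and Nxph1, neurexophilins, differed by 3.34 and 2.52, and Cbln1, a cerebellin, by 2.42, all of them also higher under neuronal scaling. Cbln4 was lower by 0.53 on the log2 scale. The interneuron and pallial markers given above were higher in D1 as well, and their part in these values was not tested.

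Of 10 partners of the FLRT, SLITRK and LRRTM proteins 7 were higher and 1 lower in D1 in water (2 and 4 under neuronal scaling). Beside these and the counts that follow, the shares of all genes were 26.8% and 26.5% (6.66% and 65.7% under neuronal scaling). The receptor phosphatase Ptprd differed by 0.71 and the latrophilin Adgrl3 by 0.59, while Unc5b, a netrin receptor also found on vessels, was lower at -1.21. Of 10 contactin and CNTNAP partners 9 were higher and none lower (3 and 3 under neuronal scaling), led by Chl1, an adhesion molecule of the L1 family, at 1.39. Of 10 catenins and other cadherin partners 3 were higher and 1 lower (1 and 7 under neuronal scaling), the lower being Ctnna1 at -0.54. The median was 0.08 for the cadherin partners, beside -0.01 over all genes.

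Fentanyl abstinence was compared with water abstinence in each cell type. No gene here passed the test in D1 or in D2 libraries, and neither did any other gene by edgeR, the share of all genes called being 0% each time. At an unadjusted p under 0.05 there were 3 of 58 in D1, against 3.77% of all 16782 genes, and 2 of 58 in D2, against 4.22% of all 17706 genes. DESeq2 called 3 genes in D1 and 0 in D2, none of them among these 65, and gave 5 and 4 of these at an unadjusted p under 0.05. The medians of the log2 difference, fentanyl minus water, were -0.03 in D1 and -0.01 in D2. For genes with at least 2 CPM the intervals were narrow: in D1 the 95% interval stayed within a 1.5-fold change either way for 55 of 56 genes, and in D2 for 50 of 53.

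Of the 3 with such a p in D1, the smallest belonged to Cntnap1, at 38.3 to 53.1 CPM (median 48.6) in fentanyl and 43.8 to 65.8 CPM (median 54.3) in water libraries. The log2 value stood at -0.20 (95% interval -0.33 to -0.07, adjusted p = 1 by edgeR). Nlgn2 had 70.5 to 104 CPM (median 87.4) in fentanyl and 76.9 to 141 CPM (median 97.9) in water libraries, a difference of -0.19 (interval -0.33 to -0.05). Without D1 female water replicate 6 it was -0.15. Both sets of libraries overlap broadly. Flrt1 and Nlgn3 stood at -0.10 and -0.08. In the other direction Slitrk6 stood at 0.28 (interval -0.01 to 0.56), Pcdh8 at 0.23 (interval -0.01 to 0.48), Cdh19 at 0.78 (interval -0.05 to 1.62), Flrt3 at 0.08 and Cdh11 at 0.06. Nrxn3 and Nlgn1 stood at -0.05 and -0.08. Without that replicate Nlgn3 stood at -0.06, Cdh11 at 0.08, Nrxn3 at -0.01, Nlgn1 at -0.06, Pcdh8 at 0.19 and Slitrk6 at 0.31 (interval 0.02 to 0.60).

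In D2 libraries Pcdh8 had the smallest p, at 19.9 to 31.6 CPM (median 27.1) in fentanyl and 22.8 to 36.6 CPM (median 29.7) in water libraries. It differed by -0.16 on the log2 scale (95% interval -0.30 to -0.02, adjusted p = 0.999 by edgeR). Cntnap5b stood at -0.14, Cdh20 at -0.42 (interval -0.86 to 0.02), Pcdh20 at -0.34 (interval -0.70 to 0.02) and Pcdh18 at -0.23. Above 0, Cdh15 and Cdh4 stood at 0.11, Cdh9 at 0.08, Pcdh19 at 0.07 and Nlgn3 at 0.04. Nrxn3 stood at -0.05, Nlgn1 at 0.05 and Nlgn2 at 0.02. The fentanyl and water libraries of a cell type overlapped for each of the genes named.

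**Figure D4:**
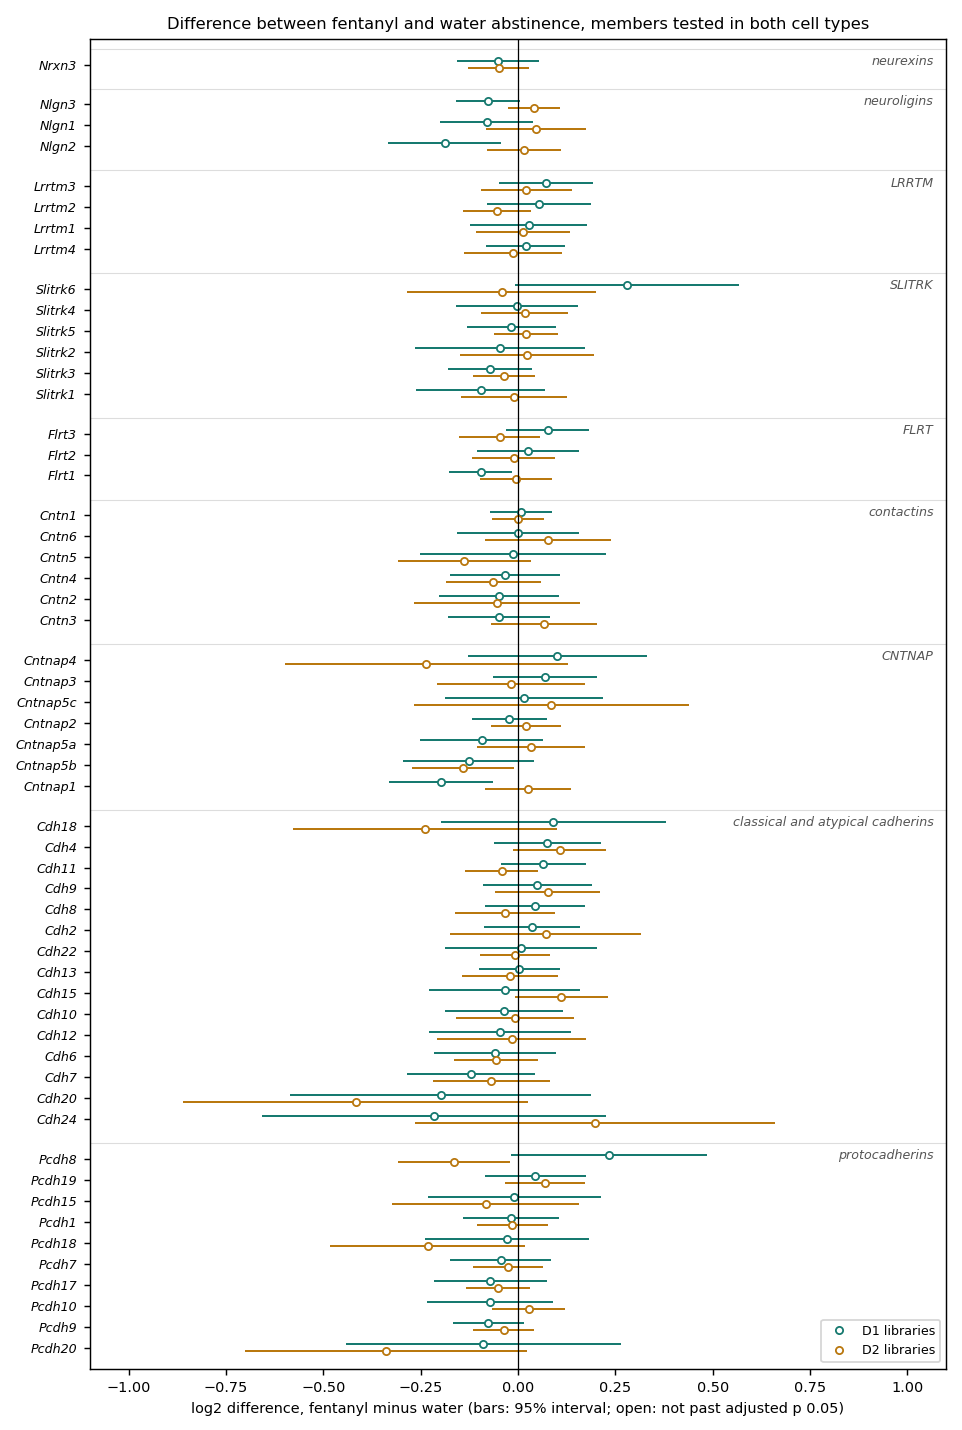
Log2 difference between fentanyl and water abstinence, fentanyl minus water, in D1 (green) and D2 (orange) libraries for 55 genes by family, with 95% intervals. Every point is open because none has an adjusted p under 0.05, and most intervals include 0. Wide intervals belong to genes of few reads, such as Cdh20, Cdh24 and Pcdh20.

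The difference in the fentanyl response between D1 and D2 was tested over all 48 libraries, and no gene here passed (0% of all 18270 genes). At an unadjusted p under 0.05 there were 4 of 59, against 4.41% of all genes, and DESeq2 called 4 genes higher and 2 lower, none of them among these. Pcdh8 stood at 0.39 (95% interval 0.11 to 0.68, adjusted p = 1 by edgeR), and at 0.35 without D1 female water replicate 6. Its value was 0.23 in D1 and -0.16 in D2, so that the point estimates lie on opposite sides of 0. Cntnap1 stood at -0.23 (interval -0.40 to -0.06), Nlgn2 at -0.21 (interval -0.38 to -0.04) and Nlgn3 at -0.12 (interval -0.22 to -0.02). Nrxn3 and Nlgn1 stood at -0.01 and -0.13, and Cdh19, with few reads, at 0.80. Without that replicate Nlgn2 stood at -0.17, Nlgn3 at -0.10 and Nrxn3 at 0.04.

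Within each sex, fentanyl and water were compared over 6 libraries each, and again none of these genes passed by edgeR, DESeq2 or limma. Over all genes edgeR called 0 in each, DESeq2 called 4 in D1 males, 0 in D1 females, 1 in D2 males and 4 in D2 females, and limma called 2 in D1 males and 1 in D2 females. In D1 females 6 of 58 had an unadjusted p under 0.05, against 5.6% of all genes, 5 of them with lower values in fentanyl. Cntnap1 had 38.3 to 53.1 CPM in fentanyl and 49.5 to 65.8 CPM in water libraries, with a log2 difference of -0.33 (95% interval -0.52 to -0.15, adjusted p = 0.838 by edgeR). Flrt1 stood at -0.17, Nlgn2 at -0.28, Nlgn1 at -0.13, Nlgn3 at -0.12, Nrxn3 at -0.05, Flrt3 at 0.15 and Cdh11 at 0.13. Without water replicate 6 Cntnap1 stood at -0.32, Flrt1 at -0.16, Nlgn2 at -0.20, Nlgn1 at -0.09, Nlgn3 at -0.08, Nrxn3 at 0.03, Flrt3 at 0.17 and Cdh11 at 0.16. The 58 genes then held 7 with such a p, against 5.043% of all genes. In D1 males 2 of 58 had such a p, against 2.71% of all genes: Pcdh8 at 0.38, with 43.4 to 60.1 CPM (median 53.6) in fentanyl and 29.9 to 51.7 CPM (median 39.2) in water libraries, and Slitrk6 at 0.42. Cdh13 stood at -0.09 and Nlgn2 at -0.10 in these males, and Nrxn3, Nlgn1 and Nlgn3 lay between -0.06 and -0.03. The fentanyl response was also compared between the sexes in D1, as the log2 difference, fentanyl minus water, of females minus that of males. There 1 of 58 had such a p, against 3.88% of all genes: Cntnap1 at -0.27 (interval -0.53 to -0.01, adjusted p = 0.998 by edgeR). Cdh13 stood at 0.18, Flrt3 at 0.16, Flrt1 at -0.16 and Nlgn2 at -0.18. Without D1 female water replicate 6 none had such a p, against 4.943% of all genes, with Cntnap1 at -0.25 and Nlgn2 at -0.10.

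In D2 males 12 of 58 had an unadjusted p under 0.05, against 6.68% of all genes, 10 of them with lower values in fentanyl, and none passed after adjustment. Pcdh20 had 1.67 to 3.34 CPM (median 2.50) in fentanyl and 2.30 to 5.91 CPM (median 4.38) in water libraries, a log2 difference of -0.73 (95% interval -1.25 to -0.22, adjusted p = 0.736 by edgeR). Pcdh7 had 77.0 to 99.8 CPM (median 90.3) in fentanyl and 94.0 to 109 CPM (median 101) in water libraries, a difference of -0.17 (interval -0.30 to -0.05). Both overlapped between the groups. Cntnap4 stood at -0.73, Cdh20 at -0.86, Cdh4 at 0.18 and Cdh15 at 0.18. In the same libraries the markers of excitatory pallial neurons summed to 105 to 330 CPM (median 170) in fentanyl and 137 to 366 CPM (median 211) in water. A covariate averaging the markers of GABA interneurons, cholinergic interneurons and excitatory pallial neurons was added after seeing the data. With it Pcdh20 stood at -0.66 (edgeR), and 13 of 58 had such a p, against 7.602% of all genes.

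In D2 females 2 of 58 had an unadjusted p under 0.05, against 4.64% of all genes: Cntn6 at 0.23 and Cntn5 at -0.26. Pcdh7 stood at 0.12 and Pcdh8 at -0.20. The difference in the fentanyl response between the sexes in D2, females minus males, gave 8 of 58 such genes, against 8% of all genes. For all 8 the log2 difference, fentanyl minus water, was higher in females than in males. Levels of females and males were not themselves compared. Pcdh7 stood at 0.29 (95% interval 0.12 to 0.47, adjusted p = 0.573 by edgeR), Cntnap3 at 0.54 and Cntnap4 at 0.99. On the other side Cntn5 stood at -0.24 and Cdh22 at -0.13. The markers of excitatory pallial neurons summed to 116 to 637 CPM (median 284) in fentanyl and 169 to 317 CPM (median 238) in water D2 females. Their part in the difference in response between the sexes was not tested. The covariate averages them with the markers of GABA and cholinergic interneurons, so it cannot single them out. With it Pcdh7 stood at 0.30.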

How the data were processed

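Polyribosome-bound RNA was measured in 48 libraries made from 10 ng of RNA with Smart-Seq v4, which keeps no strand, per the labels' protocols. The deposited values are whole-number read counts per gene, made by the authors with TopHat2 2.0.8, GRCm38 and HTSeq, per the submitters' processing notes; the annotation release and strand setting are not given in the sources used here. HTSeq's summary lines were left out of library sizes. They made up 23.1 to 32.6% of each D1 file and 17.7 to 22.2% of each D2 file, without overlap. The part of this in the differences between D1 and D2 was not tested. From the counts, edgeR 4.0.16 in R 4.3.3 (filterByExpr with a count minimum of 10 and a total of 15, TMM, robust quasi-likelihood fit, Benjamini-Hochberg adjustment over all genes tested) compared D1 with D2 in 1 fit of 48 libraries, and fentanyl with water in a fit per cell type of 24. Intervals are 95%. CPM are TMM-scaled, and the prior count was 2. DESeq2 1.42.0 and limma 3.58.1 were alternatives. The rule for named genes took, for D1 against D2, the 12 with the widest called difference each way at a mean of 2 CPM or more in the higher cell type, for fentanyl the 5 with the smallest p each way, for a single sex or a difference 2 each way, and always the neurexins and neuroligins. The others are named to account for the members; 1 gene of the rule is counted but not reported here. The members and lists were chosen with earlier results of these data known. P-values measure the spread between pools of 4 mice.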

Additional observations from a re-analysis of the deposited data

Results flagged for a closer look

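Of 272 values tested, 34 genes in 8 groups of 6 libraries, 19 held a library far from the other 5 of its group, where chance gives about 1 in 20 groups. D1 female water replicate 6 accounted for 7 of them and was highest each time: Cdh11 at 52.11 CPM (next library 45.41), Cntnap3 at 40.39 (30.31), Cntnap5b at 18.01 (12.67), Nlgn2 at 141.2 (109.8), Nlgn3 at 135.8 (115), Nrxn3 at 533.7 (404.7) and Pcdh17 at 507.3 (363.5). It was also the library with the fewest reads, 20211543, and with the largest share of its file in HTSeq's summary lines, 32.568%. The part of read depth or of that share in these values was not tested.

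D1 female fentanyl replicate 5 was highest for Cdh18 at 5.682 CPM and Pcdh17 at 423.3 CPM, and lowest for Lrrtm1 at 101.8 CPM. D1 male fentanyl replicate 5 was highest for Cdh20 at 4.804 CPM and Pcdh20 at 17.52 CPM. Among the other D1 libraries, Flrt3 stood high at 124.7 CPM in female fentanyl replicate 4 and Pcdh18 at 9.61 CPM in female water replicate 1, and Cntnap5b stood low at 10.43 CPM in male water replicate 5. Among D2 libraries, Cdh22 stood high at 36.76 CPM in female fentanyl replicate 1 and Cntnap3 at 6.589 CPM in male fentanyl replicate 2. Nrxn3 stood low at 280 CPM in D2 female fentanyl replicate 5 and Cntnap1 at 25.3 CPM in D2 female water replicate 1.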

How the results depend on the processing

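Scaling moved the D1 and D2 results most. Scaled to pan-neuronal genes, 14 of the 59 genes were higher and 25 lower in D1 in fentanyl abstinence, and 15 higher and 25 lower in water, while over all genes 1297 were higher and 11643 lower in fentanyl abstinence and 1216 and 11996 in water. Nrxn3 then stood at -0.04235 in fentanyl abstinence and -0.05745 in water, Nlgn1 at -0.04599 in fentanyl abstinence and Nlgn2 at -0.23 in water, each opposite in sign to its TMM value, as the median of all genes moved to -0.39 and -0.42. Male libraries alone gave 35 higher and 3 lower in fentanyl abstinence and 32 and 3 in water, with Nlgn2 at -0.01893. Of all 17418 genes tested there, 4136 were higher and 3996 lower in fentanyl abstinence, and 3540 and 3362 in water. Female libraries alone gave 28 and 3, and 34 and 5, against 3189 and 2933, and 3887 and 3756, of all 17460 genes. Their median in fentanyl abstinence was 0.2187, beside 0.3392 with both sexes. The fits of a single sex hold fewer libraries. limma voom with quality weights gave 40 and 8, and 40 and 7. Over all 18270 genes it called 5184 higher and 5421 lower in fentanyl abstinence, and 5010 and 5206 in water. The main fit called 4900 and 4954, and 4891 and 4842. The cause was not tested. With DESeq2 37 were higher and 5 lower in fentanyl abstinence and 39 and 6 in water, against 4763 and 5267, and 4759 and 5170, of all 18270 genes. Without D1 female water replicate 6 it was 41 and 5, and 41 and 7 (edgeR). Of all 18478 genes tested without it, 5144 were higher and 5017 lower in fentanyl abstinence, and 4920 and 4734 in water. With the replicate block 38 were higher and 5 lower in fentanyl abstinence and 39 and 6 in water, as without it. Over all genes the block gave 4870 higher and 4880 lower in fentanyl abstinence, and 4820 and 4844 in water. Libraries of the same number deviated together no more than others on average (mean r = -0.009 over 168 pairs, and 0.003 over 840 pairs of different numbers). The mean takes in pairs across lines, sexes and treatments, so it does not settle whether numbers pair some of the libraries. For fentanyl against water none of the 65 genes passed under any setting run. Depth limits genes under 1 CPM, such as Cdh19, Cdh23 and Pcdh12.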
